A study of Mus musculus with 4 samples.

Results

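The 10 genes described here encode the 4 mouse Notch receptors (Notch1, Notch2, Notch3 and Notch4), 4 of their ligands (Dll1, Dll3, Jag1 and Jag2), the DNA-binding protein Rbpj through which the pathway acts, and the transcriptional repressor Hes1. They were taken by symbol from a table of 55401 genes, and all 10 were present once and passed the filter on low counts, as did 17344 genes in all. The family was selected on the log2 fold change of Notch3, which lies among the expressed genes with the largest reductions after 5 h of auxin. The comparison of 5 h with 0 h therefore chose the family, and the values of the 10 genes in it are given as a description, with no p-value.

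The cells were embryonic stem cells of the mouse line 129/Ola, grown with serum and leukemia inhibitory factor. Every library came from a line in which SNRNP70 (U1-70K), a protein specific to the U1 snRNP, carries an auxin-inducible degron. There were 2 libraries from cells given the auxin IAA for 5 h, whose genotype the labels give as SNRNP70 degradation, and 2 from the same degron line at 0 h, which the labels call WT. RNA labelled with 4-thiouridine, and so made during the labelling window, was captured and sequenced. The labels do not say whether the line is 1 clone, whether the replicates were separate cultures or how long labelling lasted. If the replicates were not separate cultures, the p-values measure technical spread only.

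Notch receptors are single-pass membrane proteins that meet Delta-like or Jagged ligands on a neighbouring cell. Ligand binding and pulling expose the receptor to an ADAM protease and then to gamma-secretase, which frees its intracellular domain. That domain enters the nucleus and, with Rbpj and a Mastermind protein, activates genes such as those of the Hes and Hey repressors and Nrarp. Embryonic stem cells carry Notch receptors, and the pathway is best known there for its part in early neural commitment. U1 snRNP recognises 5' splice sites and keeps nascent transcripts from being cut and polyadenylated early within introns.

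The sequences just upstream of a start are shown for Notch3, Dll1 and Jag2, because these 3 genes had the largest differences between 5 h and 0 h. Each window is the 250 bases before a RefSeq start (GRCm38.p6), read 5' to 3' on the gene's own strand, which is the minus strand for all 3. The Jag2 start is an internal one. Its window lies inside the RefSeq span of Jag2, whose upstream end is at 112929812, and is not sequence upstream of the whole gene. Capitals mark GC boxes, the letters GGGCGG on either strand.
Notch3, chr17:32166891-32167140: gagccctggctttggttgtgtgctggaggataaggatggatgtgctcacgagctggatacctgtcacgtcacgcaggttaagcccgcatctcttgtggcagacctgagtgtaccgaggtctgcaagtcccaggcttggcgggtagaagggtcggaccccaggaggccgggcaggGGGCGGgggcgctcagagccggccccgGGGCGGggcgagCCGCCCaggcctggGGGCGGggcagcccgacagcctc
Dll1, outermost start, chr17:15376933-15377182: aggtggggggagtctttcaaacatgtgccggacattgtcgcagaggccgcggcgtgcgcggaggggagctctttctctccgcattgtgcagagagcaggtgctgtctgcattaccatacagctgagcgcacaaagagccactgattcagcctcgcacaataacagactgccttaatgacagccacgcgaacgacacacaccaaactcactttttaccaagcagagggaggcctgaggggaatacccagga
Jag2, chr12:112929496-112929745: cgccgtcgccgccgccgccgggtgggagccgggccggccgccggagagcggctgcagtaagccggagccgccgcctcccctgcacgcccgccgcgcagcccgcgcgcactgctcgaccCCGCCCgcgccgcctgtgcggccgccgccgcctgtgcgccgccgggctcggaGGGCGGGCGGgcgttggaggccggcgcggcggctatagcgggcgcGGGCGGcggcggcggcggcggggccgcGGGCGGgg
The Notch3 window holds 4 GC boxes, the Jag2 window 5 and the Dll1 window none. A window of 300 bases, from 250 before the start to 50 after it, was on record for 9 of the 10 genes (11 windows), and 6 of these 9 genes had a GC box. Of all 32851 windows, 35.7% had one. G+C made up 70.0% of the Notch3 window, 56.3% of the outermost Dll1 window and 86.0% of the Jag2 window, against a median of 52.7% over all windows. The core of the Rbpj site, GTGGGAA on either strand, was in no window of the 9 genes and in 6.38% of all windows. The letters TATAAA on either strand were likewise in none of them and in 13.6% of all windows. None of the 3 motifs contains another, and a missing match says only that these letters are not in this window.

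The libraries totalled 15645894 and 10349277 counts at 5 h and 17752887 and 7174772 at 0 h. Levels are CPM, which puts libraries of unlike depth on one scale, after TMM scaling, and fold changes are 5 h minus 0 h on the log2 scale from an edgeR fit over all 17344 tested genes. A floor of 3 counts equals 0.207 and 0.324 CPM in the 5 h libraries and 0.154 and 0.382 CPM in the 0 h libraries, which covers counting error only. TMM put the median gene at -0.02, library totals at -0.28 and scaling to the mitochondrially encoded genes at -0.86, so each difference is relative to the median gene. Counts depend on transcript length, which was not used here, so levels are compared between libraries and not between genes. In bulk RNA, fewer cells of a type and less RNA per cell cannot be told apart. Labelled Snrnp70 RNA averaged 463 ± 17.3 CPM at 5 h and 246 ± 4.46 CPM at 0 h (SD, n = 2 each). With mitochondrial scaling its log2 fold change of 0.91 was 0.06 and did not pass. The degron removes protein, so this RNA is no check of the labels.

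Of the 10 genes, Notch1, Dll1 and Jag2 were past the fit's threshold (Benjamini-Hochberg adjusted p under 0.05) as higher and Notch3 as lower, 4 in all. Over all tested genes 43.2% passed, 22.0% as higher and 21.2% as lower, and nothing is read from the count because the comparison chose the family. The groups did not overlap for 8 of the 10 genes, 5 higher and 3 lower at 5 h, and for 73.5% of all tested genes. The median log2 fold change of the 10 genes was 0.13. The 4 receptors had a median of -0.34 and the 4 ligands one of 0.67, both with TMM. Neither median stands for its set. The receptors ran from -2.43 (Notch3) to 0.54 (Notch1) and the ligands from -0.79 (Dll3) to 2.30 (Dll1). With mitochondrial scaling Dll1 (1.46) and Jag2 (0.46) stayed above 0, and Jag1 (-0.80) and Dll3 (-1.62) lay below it.

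**Figure D1:**
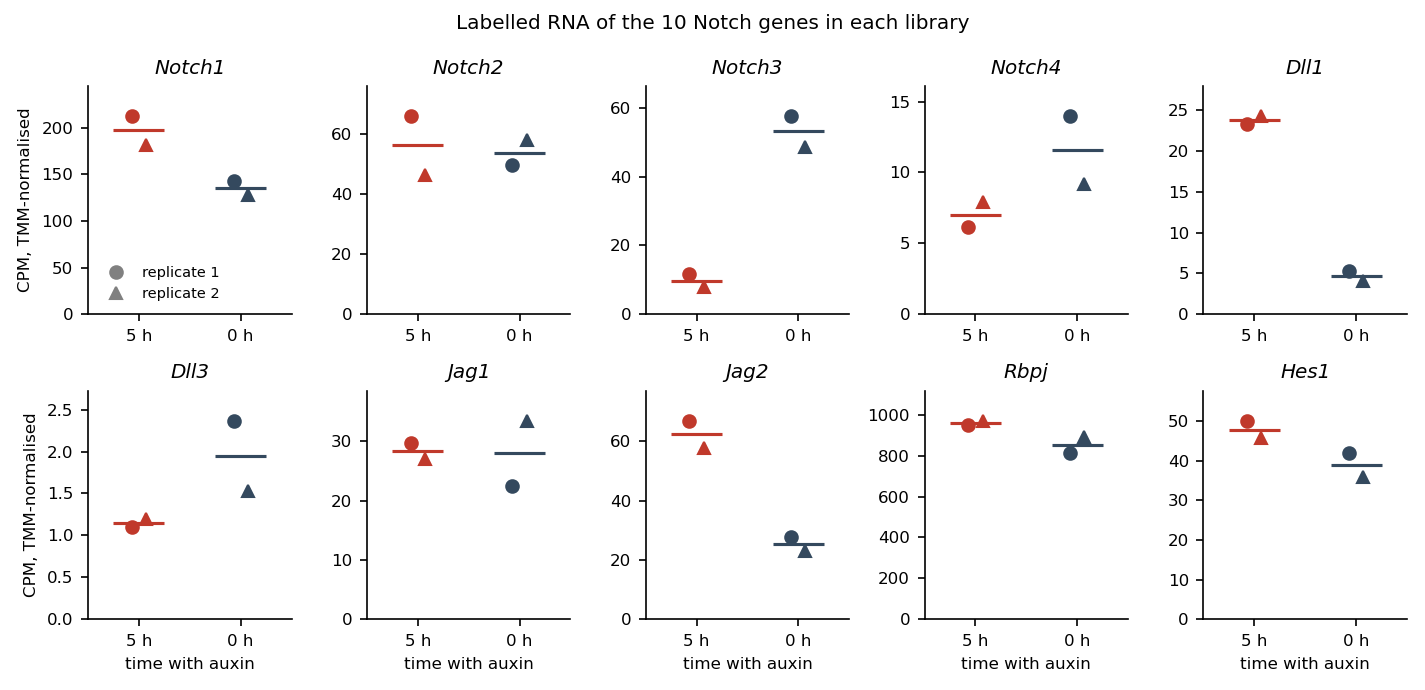
Labelled RNA of each of the 10 genes in TMM-normalised CPM (y axis, from 0, own scale per gene) in the 2 libraries at 5 h of auxin (red) and the 2 at 0 h (blue); circles are replicate 1, triangles replicate 2 and bars the means. Notch3 sits at 11.6 and 7.89 CPM at 5 h, below 57.7 and 48.6 CPM at 0 h, and Dll1 and Jag2 sit higher at 5 h.

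Among the receptors, Notch3, best known in the smooth muscle of arteries, had 11.6 and 7.89 CPM at 5 h, against 57.7 and 48.6 CPM at 0 h. These rest on 168 and 73 counts at 5 h and 1121 and 382 counts at 0 h. Both 5 h libraries were below both 0 h libraries by a wide margin. Its mean was 9.75 ± 2.62 CPM at 5 h and 53.2 ± 6.43 CPM at 0 h (SD, n = 2 each), 5.45-fold lower at 5 h. The log2 fold change was -2.43 ± 0.20 (SE), and single 5 h libraries set against single 0 h libraries (4 pairs) gave -2.85 to -2.05. Replicates differed by 0.55 on the log2 scale at 5 h and by 0.25 at 0 h. Among 11526 tested genes with a mean of at least 5 CPM, 11 had a lower log2 fold change than Notch3.

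Notch1, the receptor most studied in early development, differed in the other direction and by less. It had 213 and 182 CPM at 5 h, against 143 and 128 CPM at 0 h, with no overlap between the groups. The ratio of the means was 1.46 and the log2 fold change 0.54 ± 0.11. The direction depended on the scaling, since library totals gave 0.28, not past the threshold, and mitochondrial scaling gave -0.29.

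Notch2, a close relative of Notch1, had 66.2 and 46.6 CPM at 5 h, against 49.7 and 58.0 CPM at 0 h. The groups overlapped, and the log2 fold change of 0.08 ± 0.17 was smaller than the 0.51 by which the 5 h replicates differed. Notch4, known mainly from endothelium, had 6.15 and 7.89 CPM at 5 h, against 14.0 and 9.16 CPM at 0 h. The groups did not overlap, but the 0 h replicates differed by 0.60 and the log2 fold change was -0.76 ± 0.29. It was -0.39 without 0 h replicate 1, and -1.01 without 0 h replicate 2 and -0.92 without 5 h replicate 2, both of which put it past the threshold.

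The makeup of the receptor RNA pool does not depend on how libraries are scaled. Notch3 supplied 3.9% and 3.23% of the 4 receptors' summed counts at 5 h and 21.8% and 20% at 0 h. Notch1 supplied 71.8% and 74.5% at 5 h and 54.1% and 52.4% at 0 h. Shares within a pool are tied together, so a smaller Notch3 share by itself raises the Notch1 share. The Notch1 shares are therefore no measure of Notch1 RNA free of scaling. Counts depend on transcript length, so shares are compared between libraries and not between genes. Notch2 lay at 22.3% and 19.0% at 5 h and at 18.8% and 23.8% at 0 h, so its groups overlapped here too. The pool itself summed to 297 and 245 CPM at 5 h and to 265 and 243 CPM at 0 h, which also overlap.

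**Figure D2:**
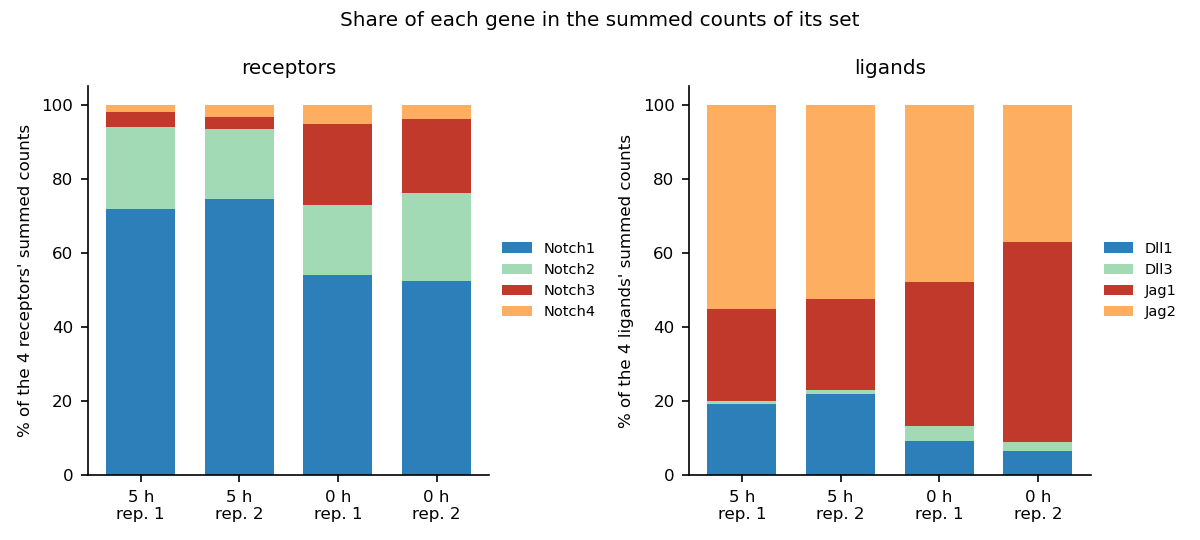
Share of each gene in the summed counts of the 4 receptors (left) and of the 4 ligands (right), in percent, for the 5 h libraries and then the 0 h libraries. The Notch3 segment is 3.9% and 3.23% at 5 h against 21.8% and 20% at 0 h, and the Dll1 segment is 19.2% and 22.0% at 5 h against 9.24% and 6.56% at 0 h.

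Among the ligands, Dll1, a Delta-like ligand of somites and neural progenitors, had 23.3 and 24.3 CPM at 5 h, against 5.35 and 4.07 CPM at 0 h. The counts were 337 and 225 at 5 h and 104 and 32 at 0 h. Both 5 h libraries stood far above both 0 h libraries. The mean was 23.8 ± 0.741 CPM at 5 h and 4.71 ± 0.906 CPM at 0 h (SD, n = 2 each), 5.05-fold higher at 5 h. Its log2 fold change was 2.30 ± 0.23, with 2.03 under library totals and 1.46 under mitochondrial scaling. Among the 11526 genes with at least 5 CPM, 47 had a higher log2 fold change than Dll1.

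Jag2, a Jagged ligand needed for limb and craniofacial development, had 67.0 and 57.8 CPM at 5 h, against 27.7 and 23.0 CPM at 0 h. The groups were well apart, and the means of 62.4 ± 6.48 CPM at 5 h and 25.4 ± 3.29 CPM at 0 h differed 2.46-fold. The log2 fold change of 1.29 ± 0.15 was 1.02 when scaled to library totals and 0.46 when scaled to the mitochondrial genes, where it was not past the threshold.

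Jag1, the Jagged ligand mutated in Alagille syndrome in humans, had 29.8 and 27.0 CPM at 5 h, against 22.5 and 33.5 CPM at 0 h. Both 5 h values lay between the 0 h values, and the log2 fold change was 0.05 ± 0.20. Dll3, a divergent ligand that does not activate receptors on neighbouring cells, was close to the detection limit. It had 16 and 11 counts at 5 h and 46 and 12 counts at 0 h, or 1.10 and 1.19 CPM at 5 h against 2.37 and 1.53 CPM at 0 h. Its log2 fold change of -0.79 ± 0.62 was near the size of its error, so with TMM a difference was not detectable at this depth. With mitochondrial scaling Dll3 was at -1.62 and passed as lower.

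The 4 ligands together summed to 121 and 110 CPM at 5 h and to 58.0 and 62.1 CPM at 0 h. Within that pool Jag1 made up 24.6% and 24.5% at 5 h and 38.9% and 53.9% at 0 h. With TMM the CPM of Jag1 itself overlapped between the groups (log2 fold change 0.05), and its share was smaller in a larger pool. That reading depends on the scaling. With mitochondrial scaling Jag1 was at -0.80 and passed as lower, and the pool was not summed under that scaling. Jag2 made up 55.3% and 52.4% at 5 h and 47.8% and 37.1% at 0 h. Dll1 took 19.2% and 22.0% at 5 h and 9.24% and 6.56% at 0 h.

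**Figure D3:**
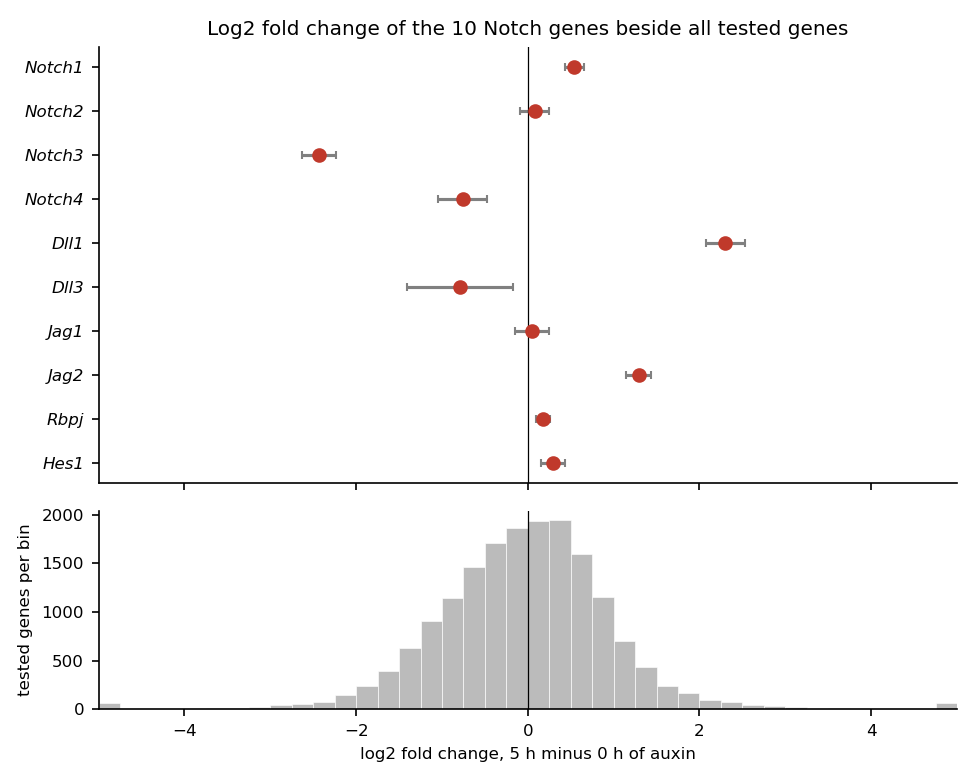
Upper panel: log2 fold change (5 h minus 0 h, x axis) of the 10 genes with bars of 1 SE; lower panel: number of the 17344 tested genes per bin of log2 fold change, with values beyond the axis in the end bins. Notch3 at -2.43 and Dll1 at 2.30 lie in opposite tails, and Notch2 at 0.08 and Jag1 at 0.05 lie at the centre.

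Rbpj, which binds DNA and turns from a repressor to an activator complex when the Notch domain joins it, had 950 and 972 CPM at 5 h, against 813 and 890 CPM at 0 h. The groups did not overlap, but the log2 fold change was only 0.18 ± 0.08. It passed as higher with limma-voom (0.18) and without 5 h replicate 1 (0.19). Library totals gave -0.09, and with mitochondrial scaling (-0.67) it passed as lower. The processed copies Rbpj-ps3 and Rbpj-ps1 were also in the table and are named after their values were seen. Rbpj-ps3 had 80.4 and 91.4 CPM at 5 h and 39.7 and 38.9 CPM at 0 h, with a log2 fold change of 1.13 ± 0.12 (edgeR quasi-likelihood test, Benjamini-Hochberg adjusted p = 7.45e-05), and Rbpj-ps1 had 0 counts in every library. With mitochondrial scaling Rbpj-ps3 was at 0.27 and did not pass. Reads of near-identical copies can be split between them, so the values of Rbpj are uncertain to that extent.

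Hes1, the basic helix-loop-helix repressor that is a classic target of the pathway, had 50.2 and 45.7 CPM at 5 h, against 42.0 and 35.9 CPM at 0 h. The groups did not overlap, and the log2 fold change was 0.29 ± 0.14. With mitochondrial scaling it was -0.54. Hes1 was the only one of the 10 genes without a promoter window in the sequence table.

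The rest of the pathway was followed through 58 further genes in 8 functional lists. All were in the table, 50 passed the filter, and 10 of these rose and 13 fell at the 0.05 threshold of the edgeR fit. That is near the 22.0% higher and 21.2% lower of all tested genes, against which the count of each list is to be read. The median log2 fold change was -0.08.

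**Figure D4:**
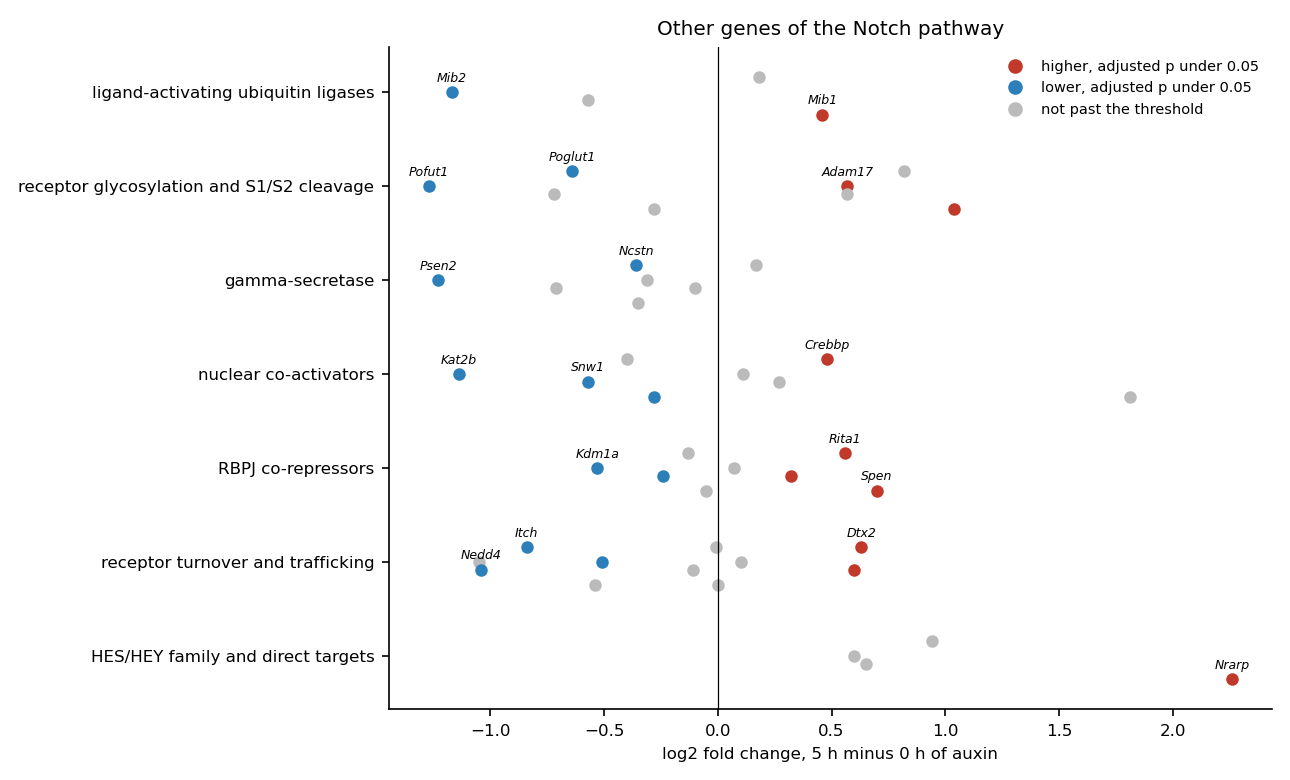
Log2 fold change (5 h minus 0 h, x axis) of the 50 tested further pathway genes by functional list; red points are higher and blue points lower at an adjusted p under 0.05 in edgeR's test, and grey points did not pass. Nrarp, at 2.26, is the highest point and Pofut1, at -1.27, the lowest.

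Nrarp, a direct target that feeds back to limit Notch activity, rose. It had 20 and 22.5 CPM at 5 h, against 5.51 and 2.80 CPM at 0 h, and a log2 fold change of 2.26 ± 0.29 (edgeR, Benjamini-Hochberg adjusted p = 0.000182). The 0 h replicates differed by 0.94, and without 0 h replicate 1 the value was 2.92. Library totals put it at 2.0 and mitochondrial scaling at 1.44. Of the 9 genes of the Hes and Hey family and direct targets, 4 were tested and only Nrarp passed. Hey1 (0.94 ± 0.42), Hey2 (0.60 ± 0.34) and Hes6 (0.65 ± 0.39) had values above 0 that did not pass. Hes5 and Hes7 had 0 counts in all 4 libraries, which at the floor allows up to 0.207 CPM in the deeper 5 h library.

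Of 8 genes that modify the receptor 2 rose and 2 fell. Pofut1, which adds the O-fucose that ligands bind to on the receptor, fell to 14.3 and 13.9 CPM at 5 h, against 34.0 and 34.2 CPM at 0 h (log2 -1.27 ± 0.16, edgeR, adjusted p = 0.000170). Poglut1, which adds O-glucose to the same repeats, fell by 0.64 on the log2 scale (adjusted p = 0.000353 in the same fit). Adam17, a protease of the ADAM family that can cut the receptor, had a log2 fold change of 0.57 ± 0.10 (adjusted p = 0.00140) and of -0.28 with mitochondrial scaling. The fringe enzyme gene Rfng, named after its values were seen, also rose (1.04 ± 0.22), but did not pass with mitochondrial scaling (0.22). Adam10, the protease mainly used by ligand-bound Notch, had 7.39 and 13.7 CPM at 5 h and 15.5 and 19.0 CPM at 0 h and did not pass.

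Of the 7 gamma-secretase genes none rose and 2 fell, against 22.0% higher and 21.2% lower of all tested genes, with a list median of -0.35. Psen2, one of its catalytic subunits, had 6.01 and 4.22 CPM at 5 h, against 12.4 and 11.8 CPM at 0 h (log2 -1.23 ± 0.27, edgeR, Benjamini-Hochberg adjusted p = 0.00447). Ncstn, the subunit that takes in substrates, was at -0.36 ± 0.12 (adjusted p = 0.0319). The Ncstn call was lost without 0 h replicate 1 (-0.37), 0 h replicate 2 (-0.34) or 5 h replicate 2 (-0.33), with no filter (-0.35) and in DESeq2 (-0.35).

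Of the 4 ubiquitin ligases that drive ligand endocytosis 1 rose, 1 fell and 2, Neurl1a (0.18) and Neurl1b (-0.57), did not pass, against 22.0% higher and 21.2% lower of all tested genes. Mib2 fell to 13.8 and 12.3 CPM at 5 h, against 31.1 and 27.7 CPM at 0 h (log2 -1.17 ± 0.18, edgeR, adjusted p = 0.000454). Its relative Mib1, the main ligase for Notch ligands, had 148 and 165 CPM at 5 h against 108 and 119 CPM at 0 h (0.46 ± 0.10, adjusted p = 0.00456). The Mib1 call was lost with library totals (0.19) and without 0 h replicate 1 (0.40), and the value was -0.39 with mitochondrial scaling. The other ligand genes Dll4, Dlk1 and Dlk2 were too low to be tested, with Dll4 at 0 counts in every library.

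Of 8 co-activator genes 1 rose and 3 fell. Kat2b, a histone acetyltransferase, fell to 36.3 and 44.1 CPM at 5 h, against 89.0 and 87.9 CPM at 0 h (log2 -1.14 ± 0.13, edgeR, adjusted p = 8.91e-05). Snw1, a splicing factor that also joins the Notch complex, was at -0.57 ± 0.11, and the acetyltransferase gene Crebbp at 0.48 ± 0.09 with TMM. Crebbp did not pass with library totals (0.21) and was at -0.37 with mitochondrial scaling. The Mastermind gene Maml1 (-0.40 ± 0.18) did not pass. Of 8 co-repressor genes 3 rose and 2 fell. Spen, the co-repressor that binds Rbpj directly, had 511 and 473 CPM at 5 h against 304 and 303 CPM at 0 h (0.70 ± 0.09, adjusted p = 0.000145), which became -0.14 with mitochondrial scaling. Kdm1a, a histone demethylase, was at -0.53 ± 0.10. Rita1, which exports Rbpj from the nucleus, was at 0.56 ± 0.18, a call lost without 0 h replicate 1 (0.49), 0 h replicate 2 (0.62) or 5 h replicate 1 (0.35). It also did not pass in DESeq2 (0.56) or with library totals (0.29), and was at -0.27 with mitochondrial scaling.

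Among 11 genes of receptor turnover 2 rose and 3 fell. The ubiquitin ligase gene Nedd4 fell to 352 and 353 CPM at 5 h, against 693 and 757 CPM at 0 h (log2 -1.04 ± 0.09, edgeR, Benjamini-Hochberg adjusted p = 2.03e-05). Itch, a ligase of the same family that targets Notch, fell by 0.84 on the log2 scale. Dtx2, of the Deltex family, was at 0.63 ± 0.13. With library totals it was at 0.36 and did not pass, and with mitochondrial scaling it was at -0.21. Numb, an endocytic adaptor that limits Notch, and its relative Numbl, both named after their values were seen, were at 0.60 ± 0.15 and -0.51 ± 0.15. The Numb call was lost with library totals (0.33), with mitochondrial scaling (-0.26) and without 0 h replicate 1 (0.51). The Numbl call was lost in DESeq2 (-0.50) and without 5 h replicate 2 (-0.45), 0 h replicate 1 (-0.56) or 0 h replicate 2 (-0.46). Fbxw7, which marks the free intracellular domain for destruction, was at 0.10 ± 0.12 and did not pass.

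In the promoter windows of the further pathway genes, 45 of which had one, 7 genes held GTGGGAA on either strand, in 7 of their 61 windows (11.5%), against 6.38% of all windows. They were Lfng, Psen2, Aph1a, Spen, Hes5, Hes7 and Hey2. Nrarp was not among them.

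Gene span differed widely among the 10 genes. Across the 15029 tested genes with a RefSeq span, the median log2 fold change was 0.49 under 5 kb, -0.01 from 5 to 20 kb, -0.21 from 20 to 50 kb, -0.28 from 50 to 100 kb and -0.29 above 100 kb. Notch3 spans 46.1 kb (chromosome 17, 32120820 to 32166896) and Notch1 45.9 kb (chromosome 2, 26457902 to 26503822), so these receptors are of nearly the same span and lay on opposite sides of their class median. Of the 3741 genes of 20 to 50 kb, 35 had a lower log2 fold change than Notch3 and 545 a higher one than Notch1. Jag2 (22.0 kb) was passed by 60 genes of that class and Dll1 (9.58 kb) by 45 of the 4634 genes of 5 to 20 kb. The longest members, Notch2 at 137 kb and Rbpj at 102 kb, were above 71.2% and 76.1% of the genes over 100 kb. Hes1, at 2.44 kb the shortest, was above 40.3% of the genes under 5 kb.

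**Figure D5:**
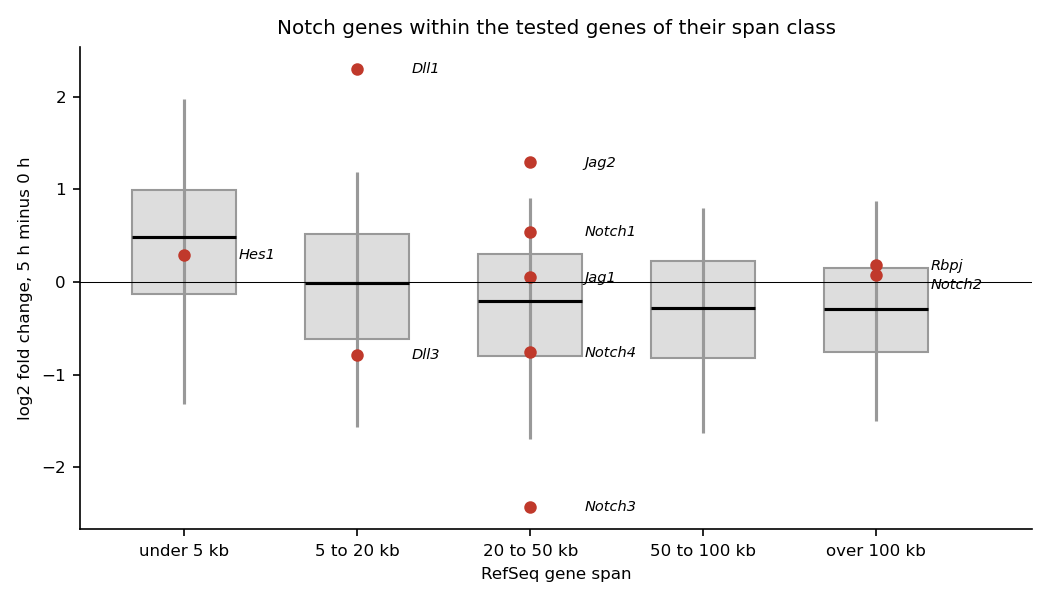
Log2 fold change (5 h minus 0 h, y axis) of tested genes by class of RefSeq gene span (x axis), with boxes for the quartiles, black lines for the medians and whiskers from the 5th to the 95th percentile; red points are the Notch genes. Notch3 lies below the whisker of the 20 to 50 kb class, whereas Notch1, of the same class, lies above the class median.

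Neighbouring genes were set beside the Notch genes. Rrp1b, a nucleolar protein gene 58.0 kb from the downstream end of Notch3, was at 0.34 ± 0.10 (edgeR, Benjamini-Hochberg adjusted p = 0.0231). It was at -0.50 with mitochondrial scaling, against -3.25 for Notch3, and its call was lost with library totals (0.07) and without 0 h replicate 2 (0.24). Beside Dll1, Fam120b, 19.3 kb upstream, had -0.47 ± 0.18 and did not pass. Beside Jag2, Nudt14, a nucleotide sugar hydrolase gene 4.48 kb upstream, was at -1.61 ± 0.40 (adjusted p = 0.00770). Beside Jag1, Slx4ip, whose annotated end lies 0.1 kb from that of Jag1, was at -0.84 ± 0.18 (adjusted p = 0.00353). RefSeq places non-coding genes within the spans of Notch1, Notch2, Notch3 and Jag2. Of these, 0610009E02Rik, on the strand opposite to Notch1, had 9 and 11 counts at 5 h and 25 and 15 at 0 h. Whether counting used the strand is not given in the sources used here, and without it reads from such overlaps could not be separated.

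The 5 genes whose pattern over the 4 libraries was nearest to that of Notch3 were Hormad2, Lrrc29, Mettl5, Zdhhc17 and Lockd. Nearness was the Euclidean distance of log2 CPM centred on each gene's mean, over the 9991 tested genes with a mean of at least 5 CPM left of those 11526 without Notch3 itself and names of predicted genes (Gm or Rik), clones and pseudogenes. Distances ran from 0.257 for Hormad2, a meiotic chromosome axis gene, to 0.353 for the non-coding RNA Lockd. Mettl5, a methyltransferase gene, lay at 0.304 and Zdhhc17, a palmitoyltransferase gene, at 0.348. Mettl5 had 3.59 and 2.59 CPM at 5 h and 15.1 and 13.2 CPM at 0 h. With 4 libraries in 2 groups, such likeness mainly reflects a reduction of like size.

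Markers of the labelled cell type were present in every library. The 8 pluripotency markers summed to 3720 and 3690 CPM at 5 h and to 3900 and 3740 CPM at 0 h. Of these, Pou5f1 (0.36) and Sox2 (0.86) rose, and Nanog (-0.27), Tdgf1 (-0.64) and Tfcp2l1 (-0.52) fell. With mitochondrial scaling Pou5f1 passed as lower (-0.48), and Sox2 was at 0.01 and did not pass. Pou5f1 did not pass with library totals (0.09) or without 0 h replicate 2 (0.26), and Nanog did not without 0 h replicate 1 (-0.24) or 0 h replicate 2 (-0.29). The 6 neural progenitor markers summed to 21.1 and 27.2 CPM at 5 h and to 13.8 and 11.5 CPM at 0 h, and the part of these and the other marker lists in the values of Dll1, Jag2 and Nrarp was not tested. Among them Sox1 rose, with 9.32 and 12.0 CPM at 5 h and 4.43 and 3.05 CPM at 0 h, but did not pass with mitochondrial scaling (0.62). Neurog2 had at most 8 counts in any library, and Pax6 and Nes did not pass. Mesoderm markers summed to 6.28 and 4.65 CPM at 5 h and to 9.21 and 6.36 CPM at 0 h, endoderm markers to 12.4 and 11.3 CPM at 5 h and 10 and 4.33 CPM at 0 h, and fibroblast markers to 14.3 and 13.7 CPM at 5 h and 12.4 and 10.9 CPM at 0 h. Trophoblast markers summed to 145 and 164 CPM at 5 h and to 92.1 and 88.9 CPM at 0 h, nearly all from Tfap2c, which stem cells also use. The groups did not overlap in any of the 6 lists' sums, pluripotency included, and 73.5% of all tested genes did not overlap either. The mesoderm marker Kdr fell to 2.14 and 2.05 CPM at 5 h, against 5.25 and 4.33 CPM at 0 h (log2 -1.20 ± 0.39, edgeR, Benjamini-Hochberg adjusted p = 0.0303). Values of Kdr under the alternatives are not given here. The other mesoderm markers did not share this fall. Mixl1 (0.38 ± 0.83) and Tbx6 (-0.09 ± 0.70) did not pass, and T and Mesp1 were too low to be tested. The trophoblast gene Cdx2 and the fibroblast genes Col3a1 and Postn had 0 counts in all libraries.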

How the data were processed

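RNA labelled with 4-thiouridine was biotinylated and enriched on streptavidin before library construction, per the labels' protocols. The deposited table holds whole-number estimated counts per gene. The build mm10 and the tools StringTie 2.2.1, HISAT2 2.2.1 and DESeq2 1.42.0 are named per the submitters' processing notes, and the role of each is not given in the sources used here. In all 4 libraries more genes had 3 or 4 deposited counts than had 2, as in counts derived from coverage, where several counts can stand for 1 fragment and counting error exceeds what the numbers imply. Rounding changed no value, and 0 columns belonged to no sample.

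Genes kept by filterByExpr were fitted with edgeR 4.0.16 (TMM, robust quasi-likelihood test, no replicate block), with Benjamini-Hochberg adjustment over all 17344 tested genes and a threshold of 0.05. SE is the log2 fold change divided by the root of F. The fit was tested on simulated data. The Notch genes, the pathway and marker lists and the naming rule were chosen with earlier results of these data known. Named were the 10 genes, Snrnp70, Zfp207, up to 3 called genes per list with the lowest adjusted p, and the 5 nearest to Notch3. Zfp207 averaged 953 ± 77.8 CPM at 5 h and 576 ± 40.5 CPM at 0 h (SD, n = 2 each). The 13 alternatives included DESeq2 1.42.0 and limma 3.58.1 (voom). Spans and sequences are from RefSeq, GRCm38.p6. Some genes that the rule and the lists take are not reported here.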

Additional observations from a re-analysis of the deposited data

How the results depend on the processing

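Over 13 alternatives the log2 fold change ran from -3.25 to -2.19 for Notch3, from 1.46 to 2.55 for Dll1 and from 1.44 to 2.92 for Nrarp, on the same side of the threshold throughout. Library totals turned Notch2 (-0.18), Jag1 (-0.22) and Rbpj (-0.09) below 0. Mitochondrial scaling did so for Notch1 (-0.29), Notch2 (-0.75), Jag1 (-0.80), Rbpj (-0.67), Hes1 (-0.54), Mib1 (-0.39), Adam17 (-0.28), Crebbp (-0.37), Spen (-0.14), Rita1 (-0.27), Dtx2 (-0.21) and Zfp207 (-0.13). It left 1 of the 10 genes called higher and 6 lower, and 1 and 29 further pathway genes. Both scalings move the median gene down. Called lower among the 10 genes were 2, with Notch4 joining Notch3, under library totals, limma-voom, no filter, the stricter filter (2 CPM in 2 libraries) and counts divided by 4. Library totals called 4 further pathway genes higher. Leaving out 1 library gave 3 to 4 of the 10 genes higher and 1 to 2 lower, and 6 to 11 further pathway genes higher (6 without 0 h replicate 1) and 10 to 16 lower. Notch2 then ran from -0.20 to 0.32 and Jag1 from -0.23 to 0.33, negative without 5 h replicate 1 or 0 h replicate 1. The labels give the same-numbered libraries only a shared number. The correlation of their deviations was 0.0505 over 17344 genes, which cannot show whether they were prepared together. The fit with a replicate block called 3 and 1 of the 10 genes and 10 and 15 pathway genes, and changed no call of the 10 genes (Notch3 -2.45) or of the pathway genes named by the rule. Dll3 was too low to be tested under the stricter filter and with counts divided by 4. The shallowest library held 7174772 counts, and the SE was 0.62 for Dll3 (11 to 46 counts a library), 0.29 for Notch4 and 0.42 for Hey1.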
